A study of Homo sapiens with 24 samples.

Results

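The 5 genes described here are the peroxisome proliferator-activated receptors *PPARA*, *PPARD*, and *PPARG* and the fasting-type PPAR target genes *ANGPTL4* and *CPT1A*. They were found by gene symbol in the deposited read-count table, where each has 1 row among 14493 genes, and each passed the filter on low counts in every comparison made here. SKBr3 (SKBR3) is an established HER2-positive human breast cancer line, and RNA-seq of it gave 24 libraries, 3 for each of 8 groups. The drug groups received ND-646, an inhibitor of acetyl-CoA carboxylase (ACC), at 250 nmol/L, TVB-3166, an inhibitor of fatty acid synthase (FASN), at 250 nmol/L, bleomycin at 10 μmol/L, doxorubicin at 10 nmol/L, palbociclib at 1 μmol/L, or alisertib at 500 nmol/L, renewed on day 3, and were harvested on day 7. Untreated cells were taken at day-0, as proliferative controls, and at day-7. The labels give a refeed on day 3 for every drug group and none for the untreated day-7 cells. In comparisons with day-7 cells, a difference in feeding therefore cannot be told apart from the drug. All groups are the same cell line, so 1 genetic background stands behind every value, and nothing in the labels says that replicates came from separate cultures, so the p-values measure the spread between these libraries only.

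PPARs are nuclear receptors that are switched on by fatty acids and their derivatives. Each binds DNA as a pair with a retinoid X receptor (RXR), at a direct repeat of the letters AGGTCA with a spacer base, and exchanges corepressors for coactivators when a ligand is bound. In the fasting liver, PPARα raises fatty acid oxidation and ketone body synthesis, PPARδ drives fat oxidation in muscle and many other tissues, and PPARγ directs fat storage in adipocytes. *ANGPTL4* encodes a secreted inhibitor of lipoprotein lipase that is induced by all 3 receptors, by hypoxia, and by glucocorticoids. *CPT1A* encodes the carnitine palmitoyltransferase that commits long-chain fatty acids to mitochondrial oxidation, and its enzyme is inhibited by malonyl-CoA, the product of ACC and the substrate of FASN.

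Total counts per library ranged from 29405121 to 44316330. Levels are given as CPM, counts scaled to the size of each library after TMM normalization, with the SD of 3 libraries. The library of ND-646 replicate 1 stood apart from the others by its TMM scaling factor (0.791), and day-0 replicate 1 had the next lowest factor (0.895). Of 7 markers of SKBR3 and luminal epithelium, 6 were in the table (*ERBB2*, *GRB7*, *KRT8*, *KRT18*, *KRT19*, and *EPCAM*), with a summed level of 9938 to 20059 CPM over the libraries. Of the adipocyte markers only *PLIN1* was in the table, at 0.190 to 0.917 CPM, and 0 of 4 hepatocyte markers were. Fibroblast markers were represented by *COL1A1* alone (6.43 to 15.3 CPM), endothelial markers by *VWF* and *CDH5* (summed 2.88 to 47.8 CPM), and leukocyte markers by *CD68* alone (3.70 to 56.4 CPM), a lysosomal gene. *CD68* rose against day-0 cells with ND-646, TVB-3166, bleomycin, doxorubicin, and palbociclib (log2 fold-change 3.11, 2.41, 2.97, 0.87, and 1.00), and *CDH5* rose with the same drugs (1.21, 0.75, 2.79, 3.03, and 3.01). *VWF* went the other way with the lipogenesis inhibitors, from a mean of 0.758 CPM in day-0 cells to 0.0989 with ND-646 and 0.240 with TVB-3166. With the other drugs *VWF* was not called against day-0 cells. Their part in the results was not tested. In bulk samples, fewer cells that express a gene and less of its RNA per cell cannot be told apart.

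In cells treated with ND-646 or TVB-3166, *ANGPTL4* fell to about 0.4 CPM from about 10 CPM. *CPT1A* fell there to about 1 in 3 of its level in untreated cells. None of the other 4 drugs lowered *ANGPTL4*. *PPARA* rose with both lipogenesis inhibitors. The ND-646 rise against day-0 cells no longer passed the test when any of 5 of the 6 libraries was left out. A low *PPARG* was not particular to these drugs. Its mean was lowest with doxorubicin (3.23 CPM), and the alisertib mean was also below that of ND-646. With ND-646 the fall of *PPARG* against day-0 cells did not pass the test. Bleomycin gave the highest mean *PPARA* level of the 8 groups, with *CPT1A* lowered to a smaller extent. *PPARD* was the receptor with the most transcript per length in every group and varied least.

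A gene was called when its adjusted p-value was under 0.05 in edgeR's quasi-likelihood test. Against untreated day-0 cells, 4 of the 5 genes were called in ND-646 cells, where 37.9% of all genes tested were called, and 5 of 5 in TVB-3166 cells, where 55.1% were. With bleomycin 2 were called (49.4% of all genes), with doxorubicin 1 (48.4%), with palbociclib 2 (53.2%), and with alisertib 1 (37.3%). Against untreated day-7 cells, the counts were 4 for ND-646 (34.2% of all genes), 4 for TVB-3166 (51.5%), 3 for bleomycin (45.6%), 1 for doxorubicin (43.4%), 1 for palbociclib (44.8%), and 2 for alisertib (19%). Both families share their untreated libraries among the 6 drugs. Untreated day-7 and day-0 cells differed in 0 of the 5 genes, with 0.587% of all genes called, and 1 of the 5, *CPT1A*, had an unadjusted p-value under 0.05 (adjusted p = 0.196). DESeq2 called 0 of the 5 as well. With so many genes called in most drug comparisons, the size of a change says more about these genes than the fact of a call.

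By the larger measure of a 2-fold change with an unadjusted p-value under 0.05, most of the changes lay with the lipogenesis inhibitors. Most of these were *ANGPTL4* and *CPT1A*, each counted against both untreated groups. The members were chosen with earlier results of these data known, so where the changes lay is a description only. With ND-646 this was met by 3 of the 5 genes against day-0 cells (*PPARA*, *ANGPTL4*, and *CPT1A*, beside 20.7% of all genes) and by 2 against day-7 cells (*ANGPTL4* and *CPT1A*, 17.4%). With TVB-3166 it was met by 2 against day-0 cells (*ANGPTL4* and *CPT1A*, 17.6%) and by 3 against day-7 cells (the same genes and *PPARG*, 13.4%). With bleomycin it was met by *PPARA* against day-0 (18.8%) and day-7 cells (14.1%). With doxorubicin it was met by 0 genes against day-0 cells (12.9%) and by *PPARG* against day-7 cells (8.77%). With palbociclib (16.7% and 11.2% of all genes) and alisertib (7.9% and 3.27%) it was met by 0 of the 5 against either untreated group, where 2 of the 5 had an unadjusted p-value under 0.05 with palbociclib and 2 with alisertib against day-0 cells.

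**Figure D1:**
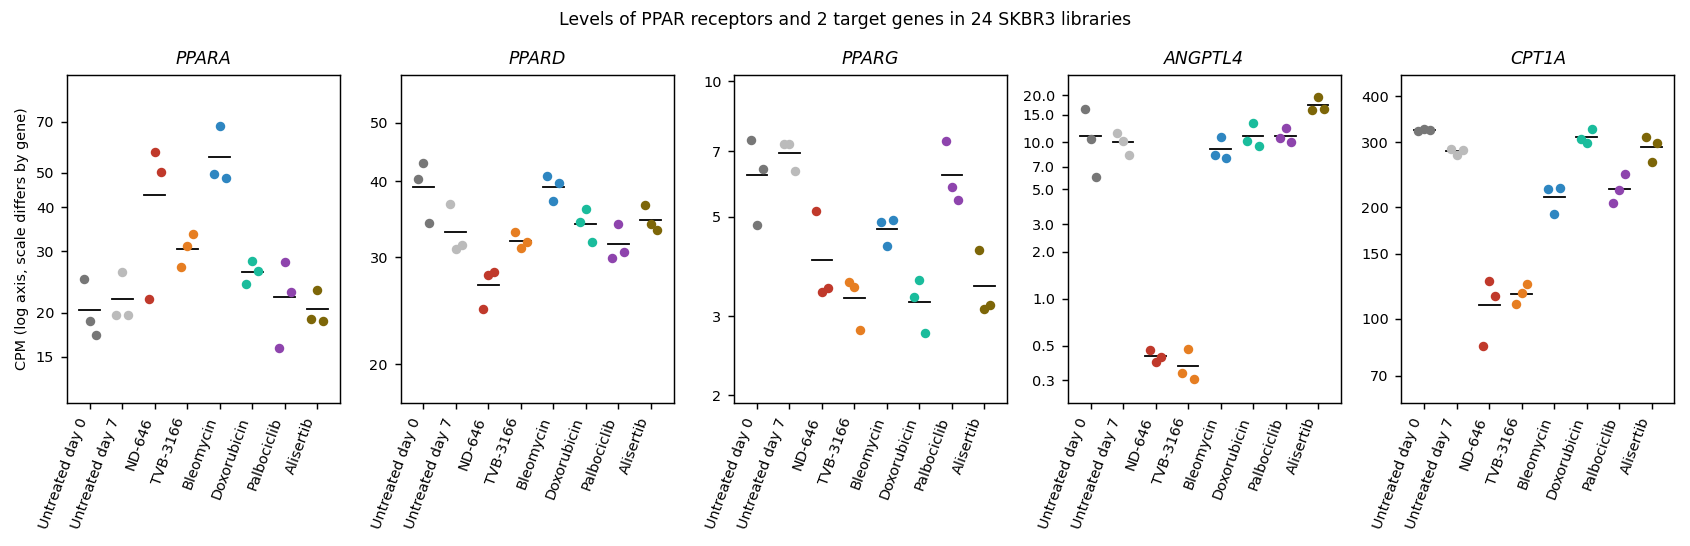
Levels of the 5 genes in 24 libraries, in CPM on a log axis whose range differs by gene. Each dot is a library and each line the mean of 3, and the 6 libraries of ND-646 and TVB-3166 cells lie between 0.308 and 0.474 CPM for *ANGPTL4*, below the 18 others, and between 84.5 and 126 CPM for *CPT1A*, also below the 18 others.

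Among the receptors, transcripts per length were compared as RPKM, the CPM divided by the length of all annotated exons in kilobases. *PPARD*, the most widely expressed of the receptors, had 6.07 to 8.80 RPKM as group means. *PPARA*, the receptor of the fasting response, had 1.54 to 4.19 RPKM, and *PPARG*, the adipocyte receptor, had 0.269 to 0.579 RPKM. The order *PPARD* over *PPARA* over *PPARG* was the same in all 8 groups, and in every group the lowest library of the higher gene lay above the highest library of the next. The annotation gives *PPARA* a long set of exons (13216 bases) and *PPARD* a shorter one (4457 bases). Their RPKM gap and order therefore depend on which transcripts the cells use, which gene counts do not show. Before division by length, mean *PPARA* was above *PPARD* with ND-646 (43.1 against 27.0 CPM) and bleomycin (55.3 against 39.2 CPM). In the other groups it was below *PPARD* in CPM too.

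**Figure D2:**
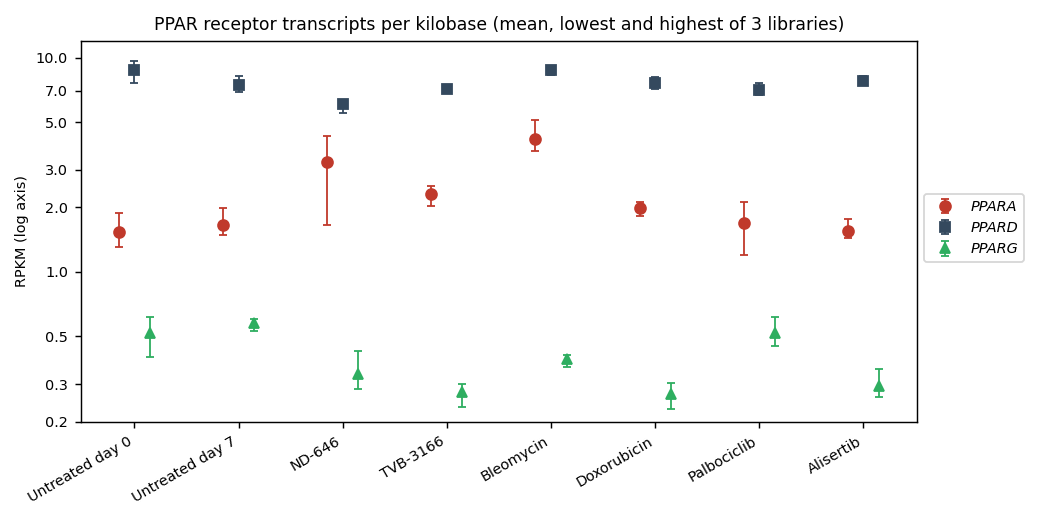
Transcript levels of the 3 receptors per kilobase of exon in the 8 groups, in RPKM on a log axis. Symbols are means and bars run from the lowest to the highest of 3 libraries, and *PPARD* stays above *PPARA* and *PPARA* above *PPARG* in every group.

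*PPARA* (NCBI Gene 5465, chromosome 22, 46546424 to 46639652 on the plus strand of GRCh37) was at 24.9, 19.0, and 17.3 CPM in the untreated day-0 libraries and at 49.7, 68.0, and 48.3 CPM in the bleomycin libraries. It was at 27.0, 31.0, and 33.4 CPM in TVB-3166 cells and at 21.8, 57.2, and 50.4 CPM in ND-646 cells. All bleomycin and TVB-3166 libraries lay above all day-0 libraries, whereas ND-646 replicate 1 lay among the untreated values and the other ND-646 libraries far above them.

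*PPARA* rose 2.72-fold in bleomycin cells against day-0 cells (log2 fold-change 1.45, SE 0.18, adjusted p = 2.33e-04) and 1.50-fold in TVB-3166 cells (log2 fold-change 0.58, SE 0.15, adjusted p = 0.00601). It rose 2.11-fold in ND-646 cells (log2 fold-change 1.08, SE 0.33, adjusted p = 0.0310). The ND-646 call was lost when any of 5 of the 6 libraries was left out (all but ND-646 replicate 1, adjusted p up to 0.111), and without ND-646 replicate 1 the log2 fold-change was 1.39 (adjusted p = 7.94e-05). The TVB-3166 call was lost when all 24 libraries were fitted together (adjusted p = 0.0571). Against day-7 cells *PPARA* also rose in bleomycin (1.36), TVB-3166 (0.49), and ND-646 cells (0.98, adjusted p = 0.0491), the last again lost without any of 5 libraries (up to 0.159). Against day-7 cells the ND-646 call was also lost without the filter on low counts (adjusted p = 0.0560) and with a minimum of 10 counts in each library (adjusted p = 0.0522), and the TVB-3166 call with all 24 libraries in 1 fit (adjusted p = 0.127).

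With doxorubicin, palbociclib, and alisertib, the mean *PPARA* level was 26.2, 22.3, and 20.5 CPM, and none of these differed from the untreated groups in the test. The doxorubicin value was near the threshold, with a log2 fold-change of 0.37 against day-0 cells (adjusted p = 0.0520), and it passed without day-0 replicate 1 (0.53, adjusted p = 0.00371). Against day-7 cells it passed with the replicate number as a block (0.29, adjusted p = 0.0280) and without day-7 replicate 2 (0.42, adjusted p = 0.00973), and not otherwise (0.29, adjusted p = 0.0820). Same-numbered libraries were taken as paired there by their correlations (0.102 to 0.210), not by the labels. Over the 8 groups, the order of the means ran from bleomycin through ND-646, TVB-3166, doxorubicin, palbociclib, day-7, and alisertib to day-0, and no group differed from its neighbour in that order.

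*PPARD* (NCBI Gene 5467, chromosome 6, 35310335 to 35395968, plus strand) was at 40.4, 42.9, and 34.1 CPM in day-0 cells, at 24.7, 28.1, and 28.4 CPM in ND-646 cells, and at 33.0, 31.1, and 31.8 CPM in TVB-3166 cells. The libraries of ND-646 and TVB-3166 cells all lay below the day-0 libraries, TVB-3166 replicate 1 by a small margin. *PPARD* fell in ND-646 cells (log2 fold-change -0.54, SE 0.15, adjusted p = 0.0235), in TVB-3166 cells (-0.29, SE 0.11, adjusted p = 0.0428), and in palbociclib cells (-0.31, SE 0.11, adjusted p = 0.0357).

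These *PPARD* calls were close to the threshold. The ND-646 call was lost without day-0 replicate 1 or 2 or ND-646 replicate 2 or 3 (adjusted p up to 0.0985), the TVB-3166 call without any of 5 libraries, day-0 replicate 3 being the exception (up to 0.153), and the palbociclib call without day-0 replicate 1 or 2 or palbociclib replicate 1 or 3 (up to 0.154). Against day-7 cells *PPARD* was not called with any of the 6 drugs, the log2 fold-changes ranging from -0.29 to 0.26. The ND-646 value of -0.29 (adjusted p = 0.140), with all libraries below those of day-7 cells, passed with all 24 libraries in 1 fit (-0.28, adjusted p = 0.0224). The bleomycin value of 0.26 (adjusted p = 0.0700) passed with the replicate number as a block (0.27, adjusted p = 0.0447), without day-7 replicate 1 (0.35, adjusted p = 0.0402), and with all 24 libraries in 1 fit (0.25, adjusted p = 0.0425). No neighbours in the order of the 8 groups differed, from 39.2 CPM with bleomycin to 27.0 CPM with ND-646.

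*PPARG* (NCBI Gene 5468, chromosome 3, 12328867 to 12475855, plus strand) fell with 3 of the 6 drugs against day-0 cells, as many as *PPARD*, and with 5 against day-7 cells. It was at 7.40, 4.80, and 6.39 CPM in day-0 cells and at 7.25, 7.24, and 6.33 CPM in day-7 cells. With TVB-3166 it was at 3.58, 3.48, and 2.80 CPM, with doxorubicin at 3.32, 3.62, and 2.75 CPM, with alisertib at 4.21, 3.12, and 3.17 CPM, and with ND-646 at 5.14, 3.40, and 3.47 CPM. In TVB-3166, doxorubicin, and alisertib cells every library was below every untreated library, whereas ND-646 replicate 1 overlapped the day-0 libraries.

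Against day-0 cells, *PPARG* fell 1.90-fold with doxorubicin (adjusted p = 0.00441), 1.88-fold with TVB-3166 (adjusted p = 0.00339), and 1.78-fold with alisertib (adjusted p = 0.0110, or 0.0548 without alisertib replicate 3). With ND-646 the log2 fold-change was -0.64 (SE 0.26, adjusted p = 0.0831), and it passed without ND-646 replicate 1 (-0.85, adjusted p = 0.0121), with all 24 libraries in 1 fit (-0.63, adjusted p = 0.00983), and with DESeq2 (-0.66, adjusted p = 0.0485). Against day-7 cells *PPARG* fell with 5 of 6 drugs, by 1.07 on the log2 scale with TVB-3166, 1.08 with doxorubicin, 0.98 with alisertib, 0.80 with ND-646, and 0.55 with bleomycin. The ND-646 call was lost without any of 5 libraries, ND-646 replicate 1 being the exception (adjusted p up to 0.0867), and the bleomycin call without bleomycin replicate 2 or day-7 replicate 1 or 2 (up to 0.0766). Palbociclib was the drug without a call, at 6.20 ± 1.02 CPM (log2 fold-change against day-7 cells -0.15, SE 0.16, adjusted p = 0.474). No neighbours in the order of its 8 group means differed.

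**Figure D3:**
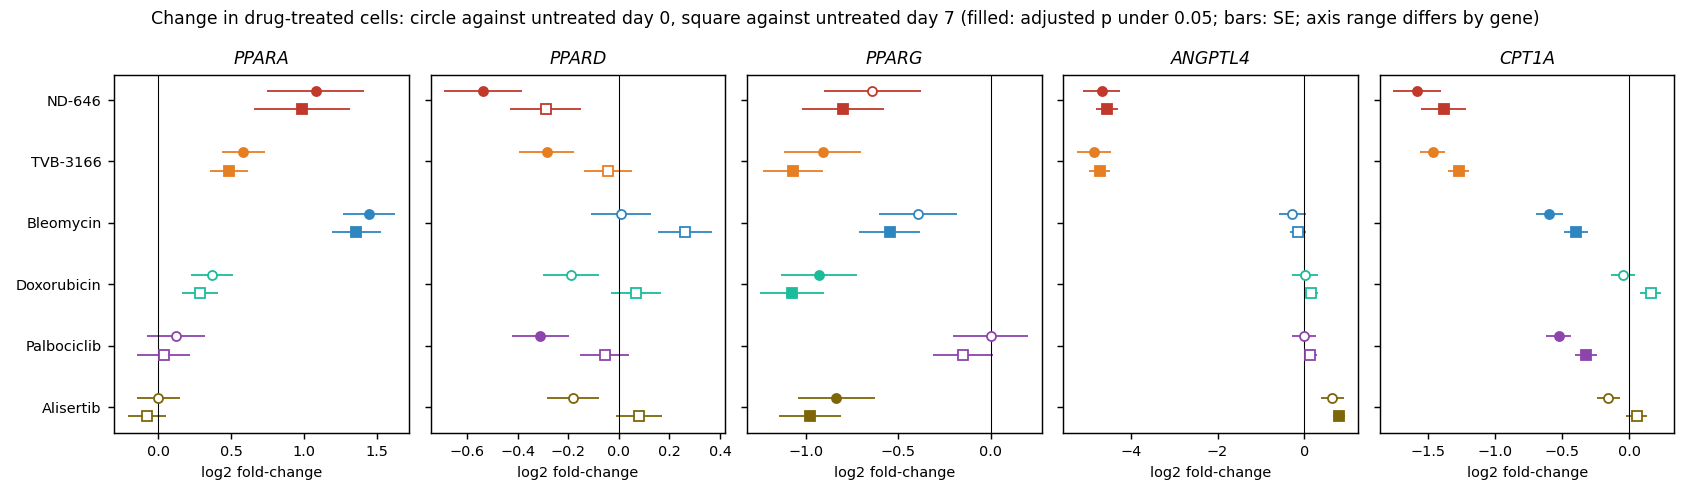
Log2 fold-change of the 5 genes with each drug against untreated day-0 cells (circles) and untreated day-7 cells (squares), with bars of 1 SE and an axis range that differs by gene. Filled symbols passed an adjusted p-value of 0.05, and *ANGPTL4* lies near -4.7 for ND-646 and TVB-3166 and between -0.27 and 0.79 for the other drugs.

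Of all genes tested against day-0 cells, 19.1% rose and 18.8% fell with ND-646, and 27.4% rose and 27.7% fell with TVB-3166, and gene lists around the receptors were read beside these shares. Of 18 listed RXR partners and cofactors of the PPARs, 16 were tested. In ND-646 cells 3 rose and 0 fell, and in TVB-3166 cells 4 rose and 1 fell. The median log2 fold-change of the list was -0.06 and -0.05, beside 0.02 and -0.01 over all genes. ND-646 libraries spread widely for some of the list, such as *EP300* (69.2 to 198 CPM) and *MED1* (466 to 1042 CPM). They spread little for others, such as *RXRB* (39.0 to 40.8 CPM). A wide spread makes a call with ND-646 less likely. Against day-7 cells 4 rose with ND-646 and 6 with TVB-3166, 0 fell, and the median had the opposite sign (0.05 and 0.14, beside 0.02 and 0.00 over all genes). Of all genes tested against day-7 cells, 34.2% were called with ND-646 and 51.5% with TVB-3166 in either direction. The day-7 counts of this and the later lists are to be read beside these shares and medians. The genes that rose with both drugs were *LPIN1*, a phosphatidate phosphatase and coactivator (log2 fold-change 1.22 and 1.50, given here and below for ND-646 and TVB-3166 against day-0 cells), *NRIP1*, a corepressor of metabolic genes (1.06 and 0.69), and *NCOA3*, a nuclear receptor coactivator (0.93 and 0.67). The coactivator *PPARGC1B* rose with TVB-3166 against day-0 cells (0.45, adjusted p = 0.0497), and against day-7 cells its value was 0.04 (adjusted p = 0.872). *LPIN1*, *NRIP1*, and *NCOA3* rose with both drugs against day-7 cells as well (0.73 and 1.02, 1.02 and 0.65, and 0.89 and 0.63).

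Neither measured RXR gene was called with the lipogenesis inhibitors against day-0 cells. *RXRA*, the main partner, was at 129 ± 22.5 CPM in day-0 cells, 175 ± 8.14 in ND-646 cells, and 149 ± 16.1 in TVB-3166 cells, with log2 fold-changes of 0.44 (adjusted p = 0.0572) and 0.22 (adjusted p = 0.171). *RXRB* had log2 fold-changes of 0.22 and 0.21 (adjusted p = 0.221 and 0.0689). Against day-7 cells *RXRA* rose with both drugs (0.53 and 0.31, adjusted p = 0.00901 and 0.0134). There *RXRB* rose with TVB-3166 (0.33, adjusted p = 0.00671) and had a log2 fold-change of 0.34 with ND-646 (adjusted p = 0.0586). Against the other 4 drugs as a set, both were higher with the lipogenesis inhibitors, by 0.28 for *RXRA* and 0.22 for *RXRB* on the log2 scale (adjusted p = 0.00230 and 0.00125). *NRIP1* and *NCOA3* also rose with bleomycin, doxorubicin, and palbociclib, by 1.58, 1.13, and 1.00 for *NRIP1* and 1.43, 0.83, and 0.54 for *NCOA3* on the log2 scale, and *LPIN1* rose with each of the 6 drugs against day-0 cells.

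The target *ANGPTL4* (NCBI Gene 51129, chromosome 19, 8428173 to 8439254, plus strand) had counts of 639, 330, and 204 in the day-0 libraries and 521, 354, and 281 in the day-7 libraries. The ND-646 libraries had 11, 11, and 12 counts, and the TVB-3166 libraries had 10, 15, and 9. All 6 libraries of these drugs were thus near the bottom of the count range, with no overlap with any other library.

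In CPM, *ANGPTL4* was at 10.9 ± 5.12 in day-0 cells, 0.427 ± 0.0376 in ND-646 cells, and 0.372 ± 0.0895 in TVB-3166 cells. It fell 25.6-fold with ND-646 (log2 fold-change -4.68, SE 0.42, adjusted p = 8.24e-05) and 28.9-fold with TVB-3166 (-4.85, SE 0.40, adjusted p = 3.52e-06). By log2 fold-change these were the 6th lowest of 13604 genes tested with ND-646 and the 2nd lowest of 13686 with TVB-3166. Genes without reads in at least 1 library were not listed, so these ranks leave them out. Against day-7 cells it fell 23.4-fold and 26.5-fold. The values kept their calls without any library, between -4.97 and -4.28 for ND-646 and between -5.14 and -4.45 for TVB-3166 against day-0 cells, the weakest of each being without day-0 replicate 1, the untreated library with the most *ANGPTL4* (16.2 CPM).

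The other drugs left *ANGPTL4* near or above the untreated level. It was at 8.34, 10.8, and 7.95 CPM with bleomycin and at 10.2, 13.2, and 9.52 CPM with doxorubicin. With palbociclib it was at 10.6, 12.4, and 10.0 CPM, and with alisertib at 16.0, 19.4, and 16.5 CPM. The alisertib libraries lay above all day-7 libraries, and *ANGPTL4* rose with alisertib against day-7 cells (1.73-fold, log2 fold-change 0.79, SE 0.14, adjusted p = 0.00392).

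Against day-0 cells, whose libraries ranged from 6.04 to 16.2 CPM, the alisertib value was 0.65 (SE 0.27, adjusted p = 0.0839), and it passed without day-0 replicate 1 (1.07, adjusted p = 7.60e-04) and with all 24 libraries in 1 fit (adjusted p = 0.0347). Between ND-646 and TVB-3166 and the other 4 drugs as sets, *ANGPTL4* was 29.0-fold lower (log2 fold-change -4.86, SE 0.22, adjusted p = 3.24e-13), the lowest log2 fold-change of 14078 genes tested. This rank, too, leaves out genes without reads in a library. In the order of its 8 group means, the step from bleomycin (9.03 CPM) to ND-646 was the only one between neighbours that differed (adjusted p = 7.08e-09).

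*CPT1A* (NCBI Gene 1374, chromosome 11, 68522088 to 68611878 on the minus strand) was at 322, 326, and 324 CPM in day-0 cells and at 287, 277, and 287 CPM in day-7 cells. It was at 84.5, 126, and 115 CPM with ND-646 and at 109, 117, and 124 CPM with TVB-3166. The untreated libraries were close together, and the 6 libraries of both lipogenesis inhibitors lay far below them, ND-646 replicate 1 lowest.

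*CPT1A* fell 2.99-fold with ND-646 (log2 fold-change -1.58, SE 0.18, adjusted p = 2.70e-04) and 2.76-fold with TVB-3166 (-1.46, SE 0.09, adjusted p = 7.17e-07) against day-0 cells, and 2.61-fold and 2.42-fold against day-7 cells. Without ND-646 replicate 1 the ND-646 value against day-0 cells was -1.43 (adjusted p = 6.64e-06). Bleomycin (224, 192, and 225 CPM) and palbociclib (205, 224, and 246 CPM) also lowered it, by 0.60 and 0.53 on the log2 scale against day-0 cells (adjusted p = 0.00126 and 8.83e-04) and by 0.40 and 0.32 against day-7 cells. With doxorubicin (311 ± 14.4 CPM) and alisertib (292 ± 23.6 CPM) it was not called against either untreated group.

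In the order of the 8 group means of *CPT1A*, only the steps from day-7 to palbociclib and from bleomycin to TVB-3166 differed between neighbours. Groups between these steps need not share a level, and all day-7 libraries lay below all day-0 libraries. Day-0, doxorubicin, alisertib, and day-7 cells lay at 284 to 324 CPM, palbociclib and bleomycin cells at 225 and 214 CPM (adjusted p = 0.0258 for day-7 against palbociclib), and TVB-3166 and ND-646 cells at 117 and 109 CPM (adjusted p = 6.67e-06 for bleomycin against TVB-3166). Between the sets of drugs, *CPT1A* was 2.27-fold lower with the lipogenesis inhibitors (log2 fold-change -1.18, SE 0.07, adjusted p = 6.21e-11).

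The same comparison of sets called 3 of the 5 genes, where 51% of all genes were called, and all 3 fell. Beside *ANGPTL4* and *CPT1A* these were *PPARD* (log2 fold-change -0.24, SE 0.06, adjusted p = 0.00278), whose libraries overlapped between the sets. *PPARA* (0.35, SE 0.15, adjusted p = 0.0552) and *PPARG* (-0.23, SE 0.12, adjusted p = 0.131) were not called. Both passed without ND-646 replicate 1, with 0.51 (adjusted p = 8.12e-04) and -0.34 (adjusted p = 0.0239), and *PPARA* also passed without alisertib replicate 2, bleomycin replicate 2, or palbociclib replicate 2, with 0.38 to 0.40.

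ND-646 and TVB-3166 act on successive enzymes of the same pathway, and 0 of the 5 genes were called between them with edgeR or DESeq2, in a comparison in which 0.717% of all genes were. At an unadjusted p-value under 0.05 there were also 0. The difference of TVB-3166 minus ND-646 was -0.18 (SE 0.34) for *ANGPTL4* and 0.11 (SE 0.17) for *CPT1A* on the log2 scale. It was -0.50 (SE 0.32) for *PPARA*, 0.25 (SE 0.12) for *PPARD*, and -0.28 (SE 0.24) for *PPARG*. The *PPARA* difference passed without ND-646 replicate 1, at -0.82 (adjusted p = 0.00244). With 3 libraries a group, these values do not show that the 2 drugs acted alike.

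The promoters of both targets are shown because these genes fell together under the lipogenesis inhibitors. The sequences are from RefSeq (GRCh38.p14), 250 bases before to 50 after the start of the gene, 5′ to 3′ on the strand of the gene. Both strands were searched for AGGTCANAGGTCA, the direct repeat bound by PPAR and RXR, for its single repeat AGGTCA, and for the hypoxia-response letters ACGTG and GCGTG, which are in capitals.
*ANGPTL4*, chr19:8363905-8364204, plus strand: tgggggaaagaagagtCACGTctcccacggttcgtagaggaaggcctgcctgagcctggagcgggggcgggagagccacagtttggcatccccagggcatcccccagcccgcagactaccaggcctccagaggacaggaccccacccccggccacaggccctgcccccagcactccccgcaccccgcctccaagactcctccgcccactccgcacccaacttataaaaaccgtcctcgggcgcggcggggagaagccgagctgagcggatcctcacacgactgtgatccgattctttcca
*CPT1A*, chr11:68844228-68844527, minus strand: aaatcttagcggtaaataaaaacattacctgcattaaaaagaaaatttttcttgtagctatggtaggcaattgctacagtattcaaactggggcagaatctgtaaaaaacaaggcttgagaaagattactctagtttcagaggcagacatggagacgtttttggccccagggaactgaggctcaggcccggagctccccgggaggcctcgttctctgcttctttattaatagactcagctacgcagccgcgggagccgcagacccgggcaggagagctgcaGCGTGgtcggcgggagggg

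The *ANGPTL4* window holds ACGTG once, on the minus strand, and the *CPT1A* window holds GCGTG once, just after the start. Of 35116 RefSeq windows of this length, 21.4% hold ACGTG and 36.5% hold GCGTG. Neither window holds the direct repeat or its single repeat, which 0.0228% and 13.8% of windows hold, and among the receptors only windows of *PPARG* hold AGGTCA. These letters are common, and their presence says nothing about binding.

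Because PPAR sites are often found within genes, the gene bodies were searched on GRCh37 for the direct repeat with up to 2 mismatches, the spacer not counted. The closest matches are shown, with bases that match the repeat in capitals.
*ANGPTL4*, intron 4, chr19:8435917-8435929, minus strand: AGGTacaAGGTCA
*CPT1A*, intron 1, chr11:68598793-68598805, plus strand: AGGTgAaAGGTCA
*CPT1A*, intron 1, chr11:68603298-68603310, minus strand: AGGTCAcAGGTCt

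The *ANGPTL4* match has 2 mismatches and is the only one in the gene, and 66.5% of windows of that length placed at the starts of protein-coding genes hold at least 1. *CPT1A* holds 11 matches, of which the 2 printed have 1 mismatch, and 37.5% of windows of its length hold at least 11 and 21.8% at least 2 with 1 mismatch. The number of matches in both genes is thus ordinary for their length.

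Of 20 listed oxidation and ketogenesis genes that PPARα is known to induce, 17 were tested. Against day-0 cells 2 rose and 5 fell with ND-646, and 2 rose and 6 fell with TVB-3166, with a median log2 fold-change of -0.29 and -0.24 beside 0.02 and -0.01 over all genes. Against day-7 cells 0 rose and 6 fell with ND-646, and 3 rose and 7 fell with TVB-3166 (median -0.33 and -0.21, beside 0.02 and 0.00 over all genes). There 34.2% and 51.5% of all genes were called in either direction. Between the sets of drugs 12 of 17 were lower and 1 higher with the lipogenesis inhibitors, with a median of -0.20 beside 0.01, where 24.7% of all genes were lower and 26.3% higher. The list and its genes were chosen with results of these data known, so the direction is not independent evidence.

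*PDK4*, the kinase that spares glucose by inhibiting pyruvate dehydrogenase in fasting, fell by 2.03 with TVB-3166, whereas its ND-646 value was -0.62 (adjusted p = 0.260). It was at 1.34 to 3.41 CPM in day-0 cells and 0.444 to 0.569 CPM in TVB-3166 cells, so few reads stand behind the fall. With bleomycin, doxorubicin, palbociclib, and alisertib *PDK4* rose instead, by 3.30, 2.16, 1.55, and 1.42.

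*ETFDH*, which passes electrons from fatty acid oxidation to the respiratory chain, fell with both lipogenesis inhibitors (-0.96 and -0.66) and with bleomycin, doxorubicin, and palbociclib (-0.35, -0.49, and -0.39). The members of the list that rose with both against day-0 cells were *ACADM*, the medium-chain acyl-CoA dehydrogenase (0.84 and 0.93), and *ECH1*, an auxiliary enzyme of unsaturated fatty acid oxidation (0.76 and 0.64). *ACADM* also rose with the other 4 drugs against day-0 cells, most with palbociclib (1.72). Against day-7 cells neither was called with ND-646 (0.33 for *ACADM* and 0.40 for *ECH1*, adjusted p = 0.268 and 0.210), both rose with TVB-3166 (0.41 and 0.28), and *ACADM* rose with doxorubicin (0.48) and palbociclib (1.22). *ETFDH* fell with both lipogenesis inhibitors against day-7 cells too (-1.03 and -0.73).

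Of 19 listed uptake, binding, and storage genes, 10 were tested, and they split in both directions, with 4 that rose and 4 that fell in ND-646 cells and 5 and 4 in TVB-3166 cells (median 0.28 and 0.22, beside 0.02 and -0.01 over all genes). Against day-7 cells 4 rose and 4 fell with each (median 0.18 and 0.33). *ACSL5* and *ACSL1*, which activate fatty acids to acyl-CoA, rose by 2.61 and 2.05 and by 1.67 and 1.84. They rose with each of the 6 drugs against day-0 cells, by 1.98 to 2.61 for *ACSL5* and 1.42 to 1.84 for *ACSL1*. Untreated day-7 cells were also above day-0 cells, by 0.98 for *ACSL1* (adjusted p = 0.0365) and 1.26 for *ACSL5* (adjusted p = 0.0526). Against day-7 cells both still rose with each drug and by less, *ACSL5* by 1.36 with ND-646 and 0.80 with TVB-3166 and *ACSL1* by 0.71 and 0.87. Genes that fell with both drugs, against either untreated group, included *FABP5*, a fatty acid binding protein that carries ligands to PPARδ (-3.50 and -3.17), *PLIN2*, the coat protein of lipid droplets (-1.52 and -2.57), and *AQP7*, a glycerol channel (-1.89 and -1.14). *FABP5* was at 1.30 to 2.46 CPM in day-0 cells and 0.143 to 0.234 CPM in the 6 libraries of the lipogenesis inhibitors, so few reads stand behind it, and *PLIN2* fell as well with palbociclib (-1.59) and alisertib (-0.92).

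**Figure D4:**
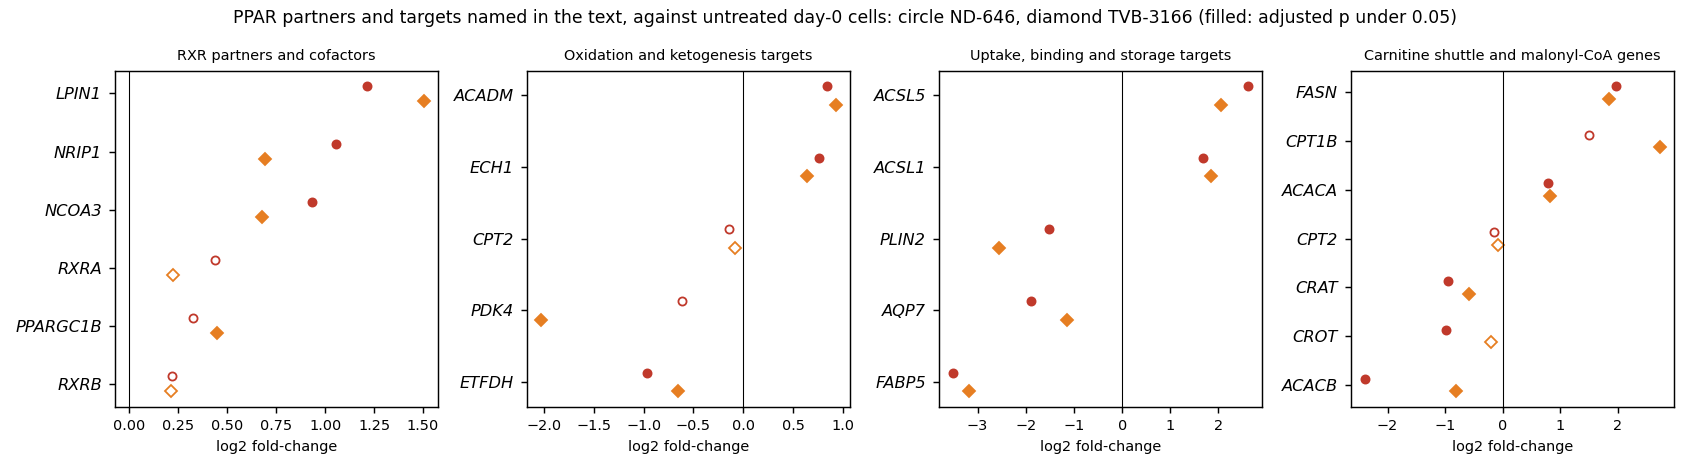
Log2 fold-change against untreated day-0 cells for the genes named in the text from 4 lists around the PPARs, with ND-646 as circles and TVB-3166 as diamonds, filled where the adjusted p-value was under 0.05, on axes whose range differs by list. *FABP5* at -3.50 has the lowest value plotted, and *ACSL5*, *ACSL1*, and *FASN* lie on the right with both drugs.

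Of 11 listed genes of the carnitine shuttle and of malonyl-CoA, which surround *CPT1A*, 10 were tested, with 2 that rose and 3 that fell in ND-646 cells and 3 and 2 in TVB-3166 cells (median -0.28 and -0.18). Against day-7 cells 1 rose and 4 fell with ND-646, and 3 rose and 5 fell with TVB-3166 (median -0.38 and -0.20). *FASN* itself rose (1.96 and 1.85), as did *ACACA*, the cytosolic ACC (0.78 and 0.83). Against day-7 cells *FASN* rose with both (1.41 and 1.30), and *ACACA* rose with TVB-3166 (0.57) and had a log2 fold-change of 0.53 with ND-646 (adjusted p = 0.0728). *ACACB*, the mitochondrial ACC whose malonyl-CoA is held to restrain CPT1, fell by 2.39 and 0.82. It was at 37.9 to 46.3 CPM in day-0 cells, 4.68 to 10.6 CPM in ND-646 cells, and 21.5 to 26.0 CPM in TVB-3166 cells, and bleomycin and palbociclib lowered it too (-1.63 and -0.64). Untreated day-7 cells had more *ACACB* than day-0 cells (0.60, adjusted p = 0.0474), and against them it fell by 2.97 and 1.41.

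*CPT1B*, the muscle isoform, rose with TVB-3166 (2.72, adjusted p = 3.33e-05), from 2.80 to 7.87 CPM in day-0 cells to 24.5 to 40.8 CPM. With ND-646 its libraries ranged from 2.21 to 20.9 CPM and it was not called (1.49, adjusted p = 0.120). It also rose with doxorubicin, palbociclib, and alisertib (1.69, 2.31, and 2.15). Against day-7 cells it rose by 1.80 with TVB-3166 and by at least 0.79 with these drugs. *CPT2*, the inner-membrane partner of *CPT1A*, was not called with either drug against day-0 cells (-0.15 and -0.09), and against day-7 cells it fell with TVB-3166 (-0.25, adjusted p = 0.0300) and had a log2 fold-change of -0.31 with ND-646 (adjusted p = 0.0744). *CRAT*, the carnitine acetyltransferase, fell with both (-0.95 and -0.59) and with the other 4 drugs (-0.48 to -0.90), and *CROT*, its peroxisomal octanoyl counterpart, fell with ND-646 (-0.99) and had a log2 fold-change of -0.21 with TVB-3166 (adjusted p = 0.279).

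Of 14 listed ANGPTL family and lipase genes, 4 were tested, and none of these was a further ANGPTL gene. In ND-646 cells 0 of 4 were called, and in TVB-3166 cells *LMF1*, the chaperone that matures lipases, rose (0.88), and *LIPE*, the hormone-sensitive lipase, fell (-0.76). Against day-7 cells *LMF1* was not called (0.36, adjusted p = 0.267) and *LIPE* fell (-0.58). *LIPG*, the endothelial lipase, was at 1.16 ± 0.302 CPM in day-0 cells and rose with bleomycin, doxorubicin, palbociclib, and alisertib (log2 fold-change 2.23, 3.03, 3.05, and 1.86), whereas with ND-646 and TVB-3166 its log2 fold-change was 0.85 and 0.64 (adjusted p = 0.0586 and 0.0877). The median of the list was 0.09 and 0.25, and against day-7 cells it was -0.06 and 0.00.

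*ANGPTL4* is also a gene of the hypoxia and glucocorticoid responses, so genes of those responses were listed. Of 13 hypoxia-induced genes 12 were tested, and 4 rose and 3 fell in ND-646 cells and 5 rose and 1 fell in TVB-3166 cells (median 0.39 and 0.16). Against day-7 cells 6 rose and 2 fell with each (median 0.63 and 0.52), where 34.2% and 51.5% of all genes were called in either direction. *VEGFA*, the angiogenic growth factor, rose (1.89 and 1.65), as did *BNIP3L*, a mitophagy receptor (1.11 and 0.67), and *LDHA*, the lactate dehydrogenase, fell (-1.13 and -0.99). Against day-7 cells *LDHA* fell by 0.61 and 0.47. The other 4 drugs moved these genes in the same directions against day-0 cells, by 0.67 to 1.12 for *VEGFA*, 0.44 to 0.88 for *BNIP3L*, and -1.05 to -1.55 for *LDHA*. Between the sets of drugs 8 of the 12 were higher and 1 lower with the lipogenesis inhibitors (median 0.34). Of all genes, 26.3% were higher and 24.7% lower there (median 0.01). *ANGPTL4* was lower, and whether hypoxia had a part in its level was not tested.

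The list of 8 glucocorticoid-response genes held the receptor gene *NR3C1* beside induced genes, and 7 were tested, with 1 that rose and 2 that fell in ND-646 cells and 2 and 2 in TVB-3166 cells (median -0.49 and -0.28). Against day-7 cells 1 rose and 2 fell with each, with a median of -0.08 and 0.11, so the sign for TVB-3166 turned. *TSC22D3* rose (1.44 and 1.49), whereas *FKBP5*, a chaperone of the glucocorticoid receptor, fell (-2.36 and -1.98), and *NR3C1* itself fell (-0.74 and -0.64). These 3 genes had the same directions and were called against day-7 cells as well. *FKBP5* fell with the other 4 drugs as well, by 0.81 to 1.44.

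Across all 24 libraries, the genes whose pattern was most like that of a member were found by the root mean square difference of log2 CPM centred on each gene's mean, over 14078 genes. The libraries share depth and scaling, so likeness is a description. For *ANGPTL4*, whose own root mean square deviation was 2.03, the most like included *SLC25A34*, a mitochondrial carrier (difference 0.769), and *OLAH*, a thioesterase that releases fatty acids from FASN (0.898).

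*SLC25A34* was at 0.234 ± 0.0588 CPM in ND-646 cells and 0.276 ± 0.105 in TVB-3166 cells, beside 2.19 ± 0.658 in day-0 cells and a highest group mean of 3.64 CPM with doxorubicin. *OLAH* was at 0.325 ± 0.313 and 0.174 ± 0.0755 CPM, beside 1.50 to 7.11 CPM. Both thus had their lowest group means with the lipogenesis inhibitors, as *ANGPTL4* had, and both differed from it in their highest group, which was doxorubicin for *SLC25A34*, palbociclib for *OLAH*, and alisertib for *ANGPTL4*.

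The genes most like *CPT1A* (own deviation 0.599) were *CCSAP* (0.193), *DCLRE1B* (0.204), and *TCOF1* (0.210), a factor of ribosomal RNA synthesis. *CCSAP* was at 24.6 ± 2.13 CPM in day-0 cells, 9.56 ± 2.57 with ND-646, and 12.1 ± 1.13 with TVB-3166. Those most like *PPARA* (0.567) were *PEAK1* (0.234), *NCOA3* (0.235), and *SNX18* (0.257), the second of these being a coactivator of the partner list. *PPARA*, *PEAK1*, and *NCOA3* each spread widely among the ND-646 libraries (21.8 to 57.2, 11.8 to 28.4, and 139 to 281 CPM). Such a spread can enter the likeness. Those most like *PPARG* (0.455) were *STK32C* (0.255), *C12orf45* (0.275), and *BABAM2* (0.287). For *PPARD*, whose group means spanned 0.54 on the log2 scale, no such genes were named.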

How the data were processed

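Total RNA of SKBr3 cells was sequenced in 24 libraries. Per the submitters' processing notes and the methods, paired-end reads were mapped with HISAT2 on GRCh37, StringTie served for transcript assembly, and DESeq2 for the authors' own comparisons. The deposited values are raw read counts, whole numbers for each gene. Counting settings, use of strand, and annotation version are not given in the sources used here, and the labels and the methods name different TruSeq stranded kits (mRNA and total RNA). The lowest count in the table is 1, so genes without reads in a library are not listed. Where genes overlap, as *PPARA* and *PPARG* do with a noncoding gene or pseudogene on the same strand, reads may be split.

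The test of the counts was that of edgeR 4.0.16, run under R 4.3.3 (filterByExpr, TMM, glmQLFit, and glmQLFTest, 2-sided, Benjamini-Hochberg adjusted over all genes tested), with only the 2 groups compared in each fit and no replicate term. Sets of drugs, neighbours in the order of levels, and CPM used all 24 libraries. Log2 CPM used a prior count of 2. The exact permutation test of 3 against 3 libraries cannot give a p-value under 0.1. Sets and lists were described by counts and medians. The members and lists were chosen with earlier results of these data known. Genes named beside the 5 are those of the lists with up to 2 of the largest rises and falls with ND-646 or TVB-3166 against day-0 cells, genes of the lists whose role bears on a member, and the 3 most like a member whose group means span at least 1. Positions are from GENCODE v44 on GRCh37. Some genes that this rule names are not reported here, though the counts and medians of the lists include them. The fit was tested on simulated data.

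Same-numbered libraries were taken as paired where all 3 correlations of their deviations from group means were over 0.1, which held for TVB-3166 against ND-646 (0.251 to 0.411) and for bleomycin (0.127 to 0.166), doxorubicin (0.102 to 0.210), and alisertib (0.114 to 0.229) against day-7 cells. The alternatives were DESeq2 1.42.0, RLE scaling in edgeR, dropping the filter, a minimum of 10 counts in each library, the replicate block, only the drug groups for the sets, all 24 libraries in 1 fit, a call rule of 2-fold or more with an unadjusted p-value under 0.05, and leaving out each library. Protein and lipid measurements were not used here.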

Additional observations from a re-analysis of the deposited data

How the results depend on the processing

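No called log2 fold-change of the 5 genes changed sign under an alternative. Of 956 values of the 5 genes under the alternatives, 895 kept their side of the threshold, 38 lost the call, and 23 gained it, 32 of the losses and 11 of the gains being on leaving out a library. RLE size factors changed 0 of 75 calls, and the effect of the scaling on the median of all genes was at most 0.0115 on the log2 scale. With a call rule of 2-fold or more at an unadjusted p-value under 0.05, falls against day-0 cells numbered 4 in place of 12, and against day-7 cells rises numbered 1 in place of 4 and falls 6 in place of 11. Between the sets of drugs, rises numbered 1 in place of 0 with the replicate block and with DESeq2, *PPARA* being the gene (log2 fold-change 0.34 in both). On leaving out each library, the member calls over all 6 drugs ranged from 2 to 4 rises and 9 to 13 falls against day-0 cells, from 3 to 4 rises and 9 to 11 falls against day-7 cells, from 0 to 1 fall for TVB-3166 against ND-646, and from 0 to 1 rise and 3 to 4 falls between the sets. Where same-numbered libraries were taken as paired, the block changed 2 calls, those of *PPARA* with doxorubicin and *PPARD* with bleomycin against day-7 cells given above. Elsewhere the block moved *ANGPTL4* with alisertib (0.75) past the threshold and *PPARD* with TVB-3166 (-0.28) under it against day-0 cells. With a minimum of 10 counts in each library, *ANGPTL4* dropped out of the TVB-3166 comparisons, because a library had 9 counts, and has no value there. A library left out of a group of 3 leaves 2, and the 9 to 15 reads of *ANGPTL4* in each ND-646 and TVB-3166 library limit the precision of its fold-change. The order of levels was not refitted under the alternatives.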
